A study of Mus musculus with 10 samples.

Results

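The comparison described here sets exo-Hi-C libraries of E3-KO mouse embryonic stem cells against those of WT cells. Its members were chosen by genotype label: 2 libraries labelled E3-KO and 2 labelled WT, so 4 of the 10 libraries of the study. All came from the line ES-E14TG2a, grown without feeder cells in medium with serum, LIF, the GSK3b inhibitor CHIR99021 and the MEK inhibitor PD0325901. E3-KO cells lacked E3, an element that the series calls an enhancer, and WT cells are labelled as unedited. The position of E3, the gene it acts on, and whether replicates were separate cultures or clones are not given in the sources used here. Exo-Hi-C adds to Hi-C an exonuclease treatment after ligation, which digests linear DNA. The labels name the exonuclease combinations LRC and LIC without tying them to libraries. The other 6 libraries, of E1-KO, E2-KO and E1&E3-dKO cells, were used only to see where else a feature of these 4 was found. By their label the E1&E3-dKO cells lack E3 as well. Counts over these 6 libraries therefore mix cells with and without E3. The cell type could not be checked with marker genes, since the files measure contacts and no expression.

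Enhancers are stretches of DNA that raise transcription of genes which may lie far away on the same chromosome, and the DNA between them is thought to loop so that they come close. Hi-C joins DNA ends that lie near each other in the nucleus and counts the joined pieces, so a pair of regions with many reads was often close in space. Along each chromosome such contacts are dense within topologically associating domains (TADs) and sparser across their boundaries, and enhancers mostly act on genes of their own TAD.

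Each library came with a list of interactions and a list of TADs. An interaction is a pair of 10 kb bins of 1 chromosome with more reads than expected for its distance, with adjusted p-values no higher than 0.01; each pair was counted once. A TAD has a start, an end and a score given by the authors, never under 1.5. The lists hold no library totals, so total depth is unknown. Relative depth was recovered from the p-values as the contacts expected for an average bin pair 1 Mb apart, and it was 0.171 and 0.0721 in E3-KO replicates 1 and 2, against 0.191 and 0.207 in WT replicates 1 and 2. Both E3-KO libraries thus lay below both WT libraries, and E3-KO replicate 2 was the shallowest by far (exact permutation test, two-sided p = 0.3333, which is the smallest that 2 libraries against 2 allow). The value of WT replicate 2 may be too high, since its list holds each pair in both orientations. The order of the libraries is uncertain to that extent. The titles of E3-KO replicate 2 and WT replicate 1 begin with w326 and those of E3-KO replicate 1 and WT replicate 2 do not, so a difference between titles can be set apart from the genotype only by comparing 1 library with 1.

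The number of interactions did not separate the genotypes. E3-KO cells had 827 and 1467 interactions in replicates 1 and 2, against 1273 and 466 in WT cells. The groups overlapped, with the highest value in E3-KO replicate 2 and the lowest in WT replicate 2. Means were 1147 ± 453 in E3-KO and 869.5 ± 571 in WT (SD, n = 2 each), a log2 difference of 0.52 (exact permutation test, two-sided p = 0.667). Without WT replicate 2 the log2 difference was -0.21, so its direction rested on that library. It was 0.20 between the libraries titled w326 and 0.83 between the other pair.

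Short-range interactions, those under 200 kb, numbered 106 and 90 in E3-KO replicates 1 and 2, against 180 and 5 in WT replicates 1 and 2. As shares of each list these were 12.8% (95% Wilson interval 10.7 to 15.3%) and 6.13% (5.02 to 7.48%) in E3-KO, against 14.1% (12.3 to 16.2%) and 1.07% (0.459 to 2.49%) in WT. The E3-KO libraries lay between the WT libraries, which were the extremes. Intervals cover only the counting error of listed bin pairs, each taken as independent. Neighbouring bin pairs can belong to 1 contact, so the intervals may be too narrow. Reads are also not known to be separate molecules. The mean share differed by 1.87 percentage points, E3-KO minus WT (exact permutation p = 1, two-sided, n = 2 each). The difference was -8.00 points between the libraries titled w326 and 11.7 points between the others, and it turned negative without WT replicate 2 (-4.66 points) or without E3-KO replicate 1 (-1.47 points).

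Pairs from 0.2 to 2 Mb apart numbered 122 and 197 in E3-KO, against 177 and 38 in WT. Their shares were 14.8% (12.5 to 17.3%) and 13.4% (11.8 to 15.3%) in E3-KO replicates 1 and 2, against 13.9% (12.1 to 15.9%) and 8.15% (6.00 to 11.0%) in WT replicates 1 and 2. WT replicate 2 was low and the other 3 libraries lay close together. The mean difference was 3.06 points (exact permutation p = 0.667, two-sided, n = 2 each), -0.48 between the w326 libraries and 6.60 between the others.

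Pairs from 2 to 20 Mb apart were the class whose shares did not overlap between the genotypes. They numbered 182 and 297 in E3-KO, against 297 and 121 in WT. Their shares were 22.01% (19.3 to 24.96%) and 20.2% (18.3 to 22.4%) in E3-KO replicates 1 and 2, against 23.3% (21.1 to 25.7%) and 26.0% (22.2 to 30.1%) in WT replicates 1 and 2. Both E3-KO shares were below both WT shares, but the interval of each E3-KO library overlaps that of each WT library. The difference was -3.52 points (exact permutation p = 0.3333, two-sided, n = 2 each), -3.09 between the w326 libraries and -3.96 between the others. With the 466 best pairs of each library it was 0.64 points, so the direction depended on the length of the lists.

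Pairs of 20 Mb and more were the largest class in every list. They numbered 417 and 883 in E3-KO, against 619 and 302 in WT. Their shares were 50.4% (47.0 to 53.8%) and 60.2% (57.7 to 62.7%) in E3-KO replicates 1 and 2, against 48.6% (45.9 to 51.4%) and 64.8% (60.4 to 69.0%) in WT replicates 1 and 2. Again the WT libraries were the extremes, with E3-KO between them. The difference of -1.41 points (exact permutation p = 1, two-sided, n = 2 each) was 11.6 points between the w326 libraries and -14.4 points between the others. It was 6.68 points without WT replicate 2 and 3.47 points without E3-KO replicate 1. With the 466 best pairs of each library it was -17.9 points, and the difference was then 5.58 points under 200 kb and 11.7 points from 0.2 to 2 Mb. At an adjusted p of at most 0.001 the difference at 20 Mb and more was -8.42 points.

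**Figure D1:**
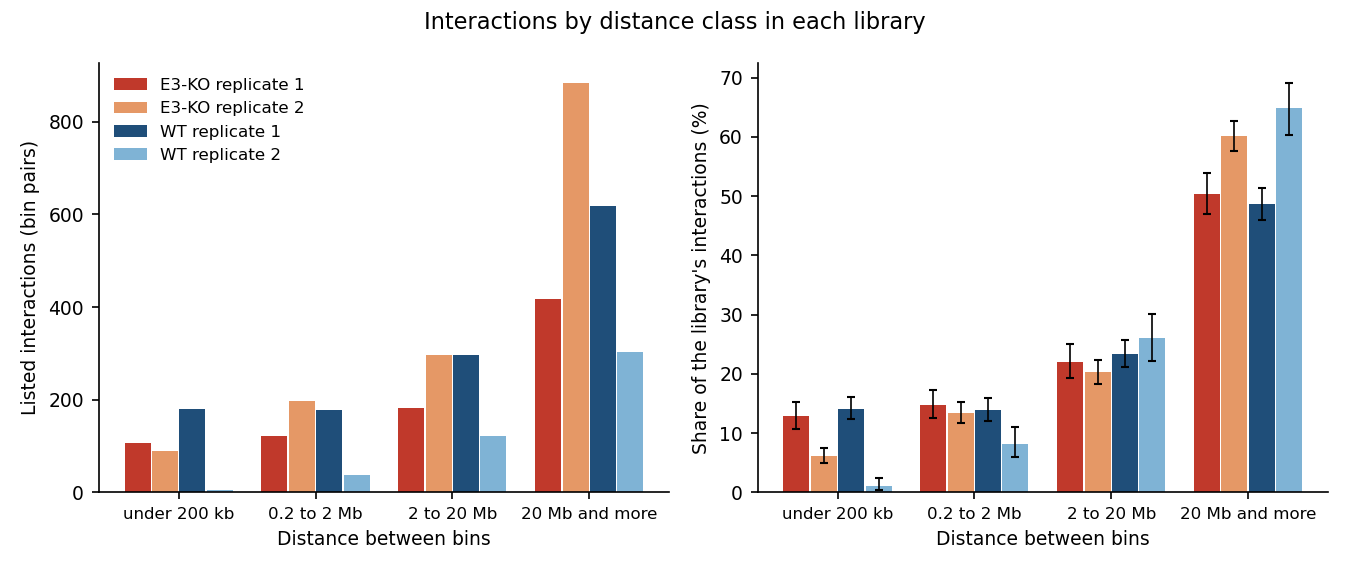
Number of interactions (left) and their share of each library's list in percent with 95% Wilson intervals (right) by distance class, for E3-KO replicates 1 and 2 and WT replicates 1 and 2. Each bar is 1 library; from 2 to 20 Mb both E3-KO shares, 22.01% and 20.2%, lie below both WT shares, 23.3% and 26.0%, and in the other classes the genotypes overlap.

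Longer interactions rested on few reads. Under 200 kb the median interaction had 16.5 and 13 reads in E3-KO replicates 1 and 2, against 17 and 16 in WT, while at 20 Mb and more it had 3 reads in all 4 libraries. Among listed interactions, reads over expected contacts were higher at longer distances. Only pairs past the limit of adjusted p are listed, so this ratio does not compare contact strength between distance classes. From 0.2 to 2 Mb the median was 23.2-fold and 69.9-fold in E3-KO, against 17.3-fold and 28.1-fold in WT, and from 2 to 20 Mb it was 297-fold and 805-fold in E3-KO, against 255-fold and 254-fold in WT. At 20 Mb and more it was 1200-fold and 1353-fold in E3-KO, against 1024-fold and 1082-fold in WT. Median expected contacts there were 0.00256 and 0.00226 in E3-KO, against 0.00301 and 0.00286 in WT. With so few expected contacts, 3 reads already give ratios of this size. In the 2 classes from 2 Mb both E3-KO libraries were above both WT libraries, and E3-KO replicate 2, the library with the fewest expected contacts, was the highest. The part of depth in this was not tested. The ratios of WT replicate 2 are too low if its expected contacts are too high.

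Most short interactions lay inside a TAD of the same library. Under 200 kb, 74.5% and 64.4% of interactions lay within 1 TAD in E3-KO replicates 1 and 2, against 75.6% and 100% (all 5) in WT replicates 1 and 2. Interactions that joined the start and end of a TAD made up 34.0% and 26.7% in E3-KO, against 49.4% and 20% in WT. From 0.2 to 2 Mb, 36.9% and 23.4% lay within 1 TAD in E3-KO, against 47.5% and 31.6% in WT. Under 200 kb both E3-KO libraries had a lower share within 1 TAD than both WT libraries, with 74.5% close to 75.6% and only 5 interactions in WT replicate 2. In the other measures the genotypes overlapped.

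Few interactions were listed in more than 1 library. Listing interactions once, and joining those with both ends within 1 bin, left 3389 distinct interactions over the 4 lists, of which 3196 (94.3%) stood in 1 list. E3-KO replicates 1 and 2 shared 107, which is 14.3% of the 746 of replicate 1 and 7.89% of the 1356 of replicate 2. WT replicates 1 and 2 shared 64, which is 5.37% of the 1192 of replicate 1 and 14.8% of the 433 of replicate 2. By distance class, from short to long, the E3-KO libraries shared 19, 45, 35 and 8, and the WT libraries shared 4, 21, 30 and 9. At 20 Mb and more, 2150 of 2169 distinct interactions stood in 1 list.

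Interactions of both E3-KO lists and neither WT list, called gained here, numbered 24 of 3389 (0.708%). Interactions of both WT lists and neither E3-KO list, called lost, numbered 2 (0.059%). By distance class the gained were 6 of 282 under 200 kb (2.13%), 10 of 297 from 0.2 to 2 Mb (3.37%), 7 of 641 from 2 to 20 Mb (1.09%) and 1 of 2169 at 20 Mb and more (0.0461%). Lost interactions were 0 of 282 (0.0%), 0 of 297 (0.0%), 1 of 641 (0.156%) and 1 of 2169 (0.0461%). The larger number of gains has beside it that WT replicate 2 listed 5 interactions under 200 kb and 38 from 0.2 to 2 Mb, which limits what can be lost in these classes. With 1 library left out the counts were 60 gained and 363 lost without WT replicate 1, 26 and 1033 without WT replicate 2, 1226 and 11 without E3-KO replicate 1, and 626 and 10 without E3-KO replicate 2, since fewer lists then have to share an interaction.

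The gained interactions with the smallest mean p under 200 kb joined 14.945 and 15.115 Mb of chromosome 5 (mm9, bin midpoints), with 21 and 25 reads in E3-KO replicates 1 and 2, and 24.025 and 24.045 Mb of chromosome 17, with 17 and 13 reads. From 0.2 to 2 Mb they joined 22.235 and 23.345 Mb of chromosome 13, with 10 and 12 reads, and 7.155 and 8.135 Mb of chromosome 17, with 13 and 8 reads. From 2 to 20 Mb they joined 85.195 and 87.425 Mb of chromosome 1, with 6 and 10 reads, and 7.105 and 21.925 Mb of chromosome 10, with 4 and 4 reads. The gained interaction of 20 Mb and more joined 19.805 and 72.095 Mb of chromosome 8, with 4 and 3 reads. Chromosome 13 had 4 gains, the most on any chromosome, followed by chromosomes 7, 12 and 17 with 3 each. E3-KO replicates 1 and 2 listed 49 and 76 interactions on chromosome 13 and 74 and 107 on chromosome 7. They listed 66 and 99 on chromosome 12 and 24 and 44 on chromosome 17. Distinct interactions were not counted by chromosome, so no share stands beside these gains.

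A pair that a list leaves out has no read count, so it may have had reads too few to be listed. The number of reads that each WT library would have needed, a measure added after the data were seen, was computed from its own expected contacts at that distance, the bins' bias factors in the E3-KO lists and the largest p-value in its list. For WT replicate 2 this number is too high if its expected contacts are too high. The chromosome 5 pair would have needed 18 reads in WT replicate 1 and 19 in WT replicate 2, fewer than the 21 and 25 reads of E3-KO. The chromosome 13 pair at 22.235 and 23.345 Mb would have needed 6 and 7 reads in WT replicates 1 and 2, and in E3-KO it had 10 and 12. For 15 of the 24 gained interactions the reads of both E3-KO libraries reached the number needed in WT replicate 1, and for 11 they reached that of WT replicate 2, whose list spans no distance as short as 3 others. For 3 of 24 both E3-KO libraries had fewer reads than WT replicate 1 needed, so the same reads would have gone unlisted there. Among them was the pair at 76.905 and 77.415 Mb of chromosome 14 with 9 and 9 reads, where WT replicates 1 and 2 needed 11 and 12 (chosen after its values were seen). Reads were not scaled for depth in these comparisons. Recovered depth was 0.191 in WT replicate 1, against 0.171 and 0.0721 in E3-KO, so an equally strong contact would give more reads in WT replicate 1.

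The lost interactions joined 39.345 and 46.625 Mb of chromosome 7, with 5 and 5 reads in WT replicates 1 and 2, and 57.435 and 82.635 Mb of chromosome 6, with 4 and 6 reads. E3-KO replicates 1 and 2 would each have needed 4 reads to list the chromosome 7 pair, and 4 and 3 reads to list the chromosome 6 pair. The chromosome 7 pair lies next to interactions of all 4 libraries between the same places, described below, and the E3-KO libraries listed those.

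No gained or lost interaction was found in these 4 libraries alone. The other 6 libraries include those of E1&E3-dKO, which by their label also lack E3. Replicate 2 of these listed 6014 interactions, and the look-up did not separate them from the rest. All 24 gained interactions were held by at least 1 of the other 6 libraries, with a median of 3 and 1 held by all 6. That one joined 68.445 and 68.525 Mb of chromosome 13, with 15 and 23 reads in E3-KO replicates 1 and 2 (chosen after its values were seen). The lost pairs of chromosomes 7 and 6 were held by 3 and 5 of the other 6 libraries.

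Interactions of all 4 lists, 45 in number, are the ones that can be compared in strength. They spanned a median of 2.42 Mb, with 8 on chromosome 12, 6 on chromosome 6 and 5 each on chromosomes 1 and 13. Their reads summed to 678 and 717 in E3-KO replicates 1 and 2, against 666 and 488 in WT replicates 1 and 2. The expected contacts of these pairs summed to 12.5 and 6.30 in E3-KO, against 13.7 and 14.9 in WT. The E3-KO libraries were therefore higher in reads by a little and lower in expected contacts, most of all replicate 2. The expected contacts of WT replicate 2 may be too high, since its list holds each pair in both orientations.

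Enrichment, the log2 of reads over expected contacts, had a median of 7.76 and 9.001 in E3-KO replicates 1 and 2, against 7.35 and 6.78 in WT replicates 1 and 2. It was on average higher in E3-KO for 45 of 45 interactions, by a median of 0.88 (0.18 to 1.68), but with each library centred on its median over these interactions the median difference was -0.44, so the direction depended on the scaling. For 27 of the 45 both E3-KO libraries lay above both WT libraries (60%), and for 0 both lay below (0.0%). Both counts, 45 and 27, rest on the expected contacts of WT replicate 2, which may be too high. Its enrichment would then be too low, and the counts might not stand. Without WT replicate 2 the median difference was 0.74. No interaction passed limma's test at an adjusted p of 0.05 (0 of 45, 0.0%; smallest Benjamini-Hochberg adjusted p = 0.225), and 7 had an unadjusted p under 0.05 (15.6%). By edgeR's quasi-likelihood test on the reads, added after the data were seen, 0 passed with expected contacts as offset (smallest adjusted p = 0.154, 7 unadjusted), and 0 when reads were scaled to their total over these pairs (smallest adjusted p = 0.613, 2 unadjusted). With the scaling to totals the median log2 difference was 0.01. Depth moved with this result, and its part was not tested. Without E3-KO replicate 1 limma called 25 interactions, all higher, in a fit where E3-KO replicate 2, the shallowest library, stood alone and was assumed to vary like the WT libraries. With the title as a block limma called 21, all higher.

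The interaction that differed most joined 42.975 and 117.715 Mb of chromosome 6. It had 9 and 11 reads in E3-KO replicates 1 and 2, against 5 and 7 in WT, and its log2 enrichment of 10.96 and 12.23 in E3-KO, against 9.85 and 9.99 in WT, gave a difference of 1.68 (SE 0.69, limma adjusted p = 0.225). The pair at 84.965 and 87.445 Mb of chromosome 1 had 12 and 12 reads in E3-KO, against 9 and 5 in WT, with a difference of 1.66. Near it lies the gained pair at 85.195 and 87.425 Mb. On chromosome 7, the pair at 39.205 and 46.585 Mb had 17 and 30 reads in E3-KO, against 12 and 10 in WT, with a difference of 1.65, and the pair at 39.245 and 46.485 Mb had 9 and 8 in E3-KO, against 7 and 6 in WT, with a difference of 1.56. The pair at 66.515 and 66.815 Mb of chromosome 13 had 33 and 24 reads in E3-KO, against 16 and 14 in WT, with a difference of 1.53. These 5 were chosen by enrichment, among interactions where both E3-KO libraries lay above both WT libraries. In all 5 both E3-KO libraries also had more reads than both WT libraries, but enrichment is computed from these reads. Over all 45 interactions median reads overlapped, with 12 and 13 in E3-KO, against 13 and 11 in WT. Each of the 5 had an adjusted p of 0.225 by limma. Of the other 6 libraries, 3 to 6 held each of them.

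**Figure D2:**
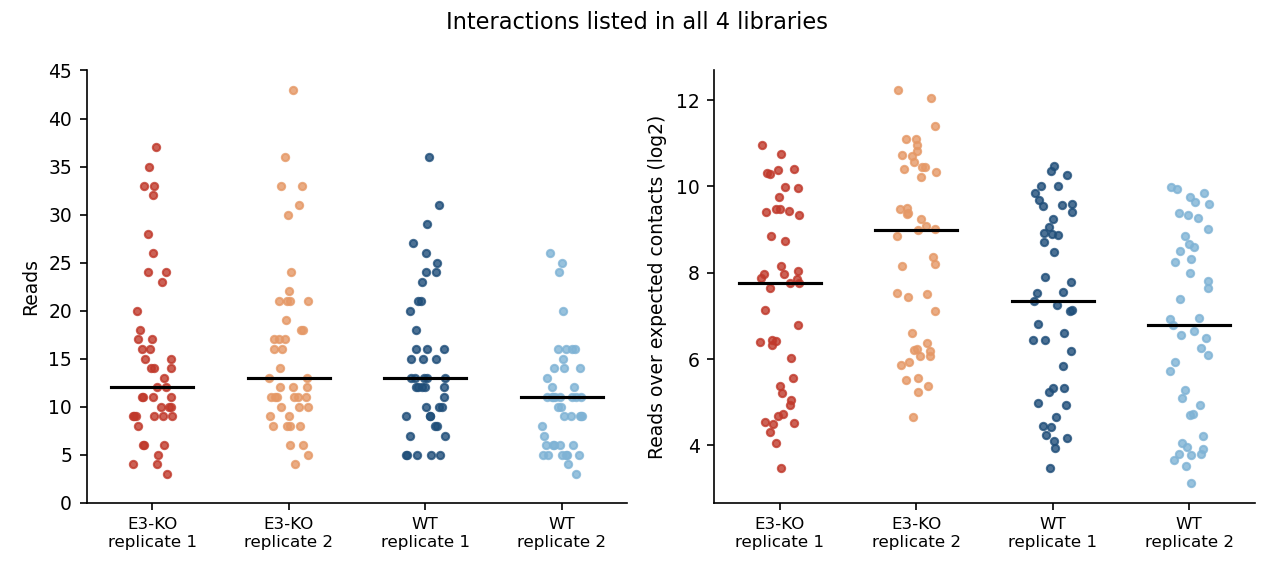
Reads (left) and log2 of reads over expected contacts (right) of the 45 interactions listed in all 4 libraries, by library; each point is 1 interaction and the black lines are medians. Median reads are 12 and 13 in E3-KO, against 13 and 11 in WT, while median enrichment is 7.76 and 9.001 in E3-KO, against 7.35 and 6.78 in WT.

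TADs were more numerous and shorter in 1 of the E3-KO libraries. E3-KO cells had 3300 and 4859 TADs in replicates 1 and 2, against 2878 and 3548 in WT cells. Their median length was 230 and 130 kb in E3-KO, against 250 and 210 kb in WT. E3-KO replicate 2 stood apart in both measures, and E3-KO replicate 1 lay between the WT libraries. Means were 4079.5 ± 1102 TADs in E3-KO and 3213 ± 474 in WT (SD, n = 2 each), a log2 difference of 0.33 (exact permutation p = 0.667, two-sided). The log2 difference of median length was -0.41 (exact permutation p = 0.667, two-sided, n = 2 each).

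Within the title w326 the log2 difference was 0.76 in number and -0.94 in length, and between the other libraries it was -0.10 and 0.13, so both turned. Without E3-KO replicate 2 the difference in length was 0.01. TADs of 90 kb or less numbered 429 and 1637 in E3-KO (13% and 33.7%), against 335 and 625 in WT (11.6% and 17.6%). TADs of 1 Mb or more numbered 205 and 70 in E3-KO, against 173 and 179 in WT. E3-KO replicate 1 had the most long TADs of the 4 libraries and replicate 2 the fewest, and replicate 2 was also the library of lowest recovered depth. The part of depth was not tested. TADs covered 1147 and 1014 Mb in E3-KO, against 1028 and 1144 Mb in WT, so the genotypes overlapped in how much of the genome lay in TADs.

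To follow single domains, the 1783 TADs found in both WT libraries, each overlapping its counterpart reciprocally by at least 80%, were looked up in each E3-KO library. A TAD was kept where an E3-KO TAD overlapped it reciprocally by at least 80%, and shifted at 50 to 80%. It was split where 2 or more TADs lay inside it and covered at least 60% of it, and merged where 1 TAD held it together with another WT TAD. E3-KO replicate 1 kept 1444 (81.0%) and replicate 2 kept 1176 (66.0%). Both kept 1026 (57.5%), at least 1 kept 1594 (89.4%) and neither kept 189 (10.6%).

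Splits and merges were rare. E3-KO replicates 1 and 2 split 2 and 21 of the 1783, and none of these was split in both (0.0%). They merged 4 and 4, of which 2 were merged in both (0.112%). They shifted 82 and 134, with 24 shifted in both (1.35%). A WT TAD held smaller TADs without meeting the rule for a split in 65 cases in replicate 1 and 256 in replicate 2, with 34 in both (1.91%). No TAD overlapped it in 123 and 137 cases, with 31 in both (1.74%). A further 37 and 21 lay inside 1 larger TAD, and 26 and 34 overlapped in part. Looking up the TADs of 1 WT library alone in both E3-KO libraries takes in more TADs than the 1783. Without WT replicate 1 it gave 0 split, 23 merged and 109 shifted of 3548. Without WT replicate 2 it gave 3 split, 6 merged and 78 shifted of 2878.

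Libraries of 1 genotype also differed in many TADs. Of the 2878 TADs of WT replicate 1, 63.3% were kept in E3-KO replicate 1 and 51.4% in E3-KO replicate 2, against 62.0% in WT replicate 2. Of the 3548 of WT replicate 2, 52.5% and 43.0% were kept in E3-KO replicates 1 and 2, against 50.3% in WT replicate 1. E3-KO replicate 1 thus held slightly more of each WT library's TADs than the other WT library did. The E3-KO libraries kept 47.1% of the TADs of replicate 1 and 32.0% of those of replicate 2 in each other. In the reverse direction, of 1554 TADs found in both E3-KO libraries, 1180 (75.9%) were kept in WT replicate 1, 1184 (76.2%) in WT replicate 2, 1021 (65.7%) in both and 211 (13.6%) in neither.

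**Figure D3:**
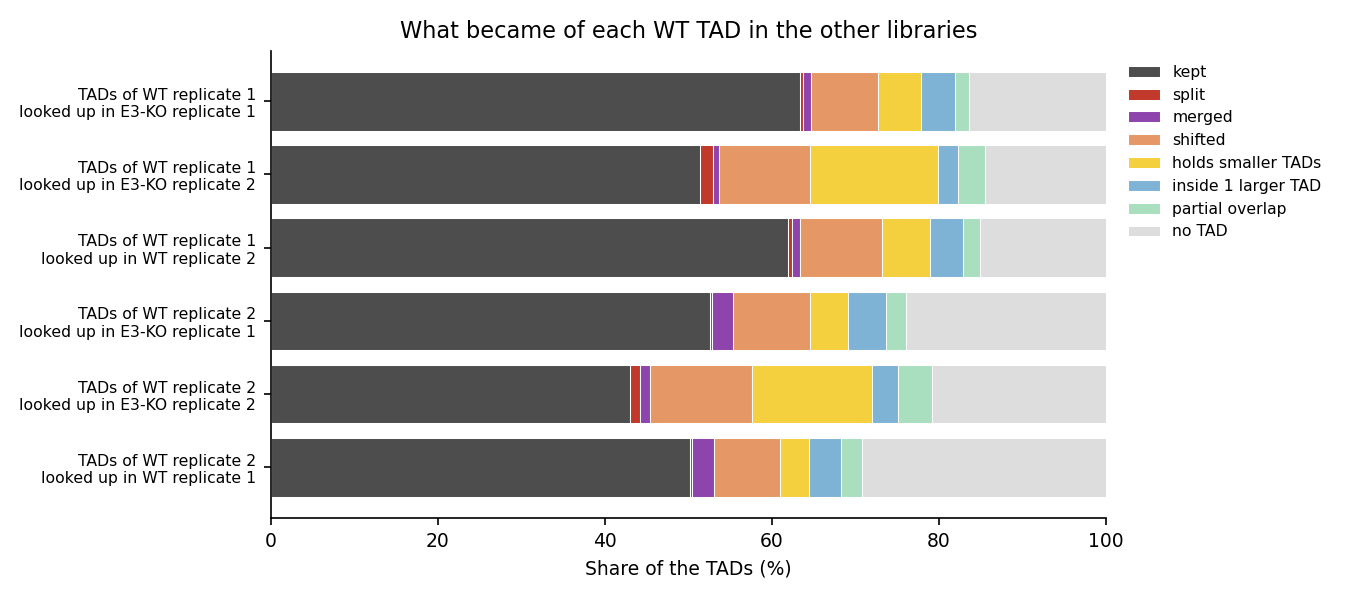
Share of TADs, in percent, that were kept, split, merged, shifted, held smaller TADs, lay inside a larger TAD, overlapped in part or met no TAD when the TADs of 1 WT library were looked up in another library, as named beside each bar. Of the TADs of WT replicate 1, 63.3% and 51.4% were kept in E3-KO replicates 1 and 2, against 62.0% in WT replicate 2.

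Long WT TADs held smaller TADs most often in E3-KO replicate 2. Of WT TADs of at least 800 kb, 88.1% were kept in E3-KO replicate 1 and 50% in E3-KO replicate 2, and 7.22% and 42.3% held smaller TADs. Of those under 200 kb, 70.9% and 64.8% were kept in replicates 1 and 2, and 0.370% and 2.22% held smaller TADs. Share kept therefore went up with length in replicate 1 and was lowest for the longest TADs in replicate 2. The median WT length was 595 kb for TADs split in replicate 2 and 605 kb for those that held smaller TADs there, against 290 kb for all 1783.

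Kept TADs mostly kept both ends. Neither end lay more than 25 kb away in 91.0% of the kept TADs of E3-KO replicate 1 and 85.6% of those of replicate 2. The overlap of at least 80% that defines kept itself limits how far ends can lie away, most of all in short TADs. These shares are therefore partly set by the rule. Among shifted TADs, 1 end moved in most cases: in replicate 1 the start alone in 36 and the end alone in 33 of 82, and in replicate 2 the start alone in 44 and the end alone in 61 of 134. The moved ends lay a median of 80 kb away in replicate 1 and 65 kb in replicate 2. Shifted TADs were longer than in WT in 39 and shorter in 43 cases in replicate 1, and longer in 45 and shorter in 89 in replicate 2.

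The merge found in both E3-KO libraries lay on chromosome 3. A TAD from 92.88 to 93.45 Mb in E3-KO replicate 1 (570 kb, score 2.147) and from 92.86 to 93.45 Mb in E3-KO replicate 2 (590 kb, score 2.082) held a pair of WT TADs, at 93.15 to 93.305 Mb, with scores of 1.628 and 1.569 in WT replicates 1 and 2, and at 93.31 to 93.42 Mb, with scores of 2.137 and 2.078. WT ends are means of both libraries. Of the other 6 libraries 4 also held them merged. At 74.04 to 74.70 Mb of chromosome 5, a merge in E3-KO replicate 1 alone joined WT TADs at 74.24 to 74.345 Mb and 74.385 to 74.485 Mb, and E3-KO replicate 2 had kept the second of these. At 91.11 to 91.38 Mb of chromosome 6, a merge in E3-KO replicate 2 alone joined WT TADs that E3-KO replicate 1 kept.

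Among TADs shifted in both E3-KO libraries, the one with the highest WT score lay on chromosome 14. It ran from 20.42 to 20.90 Mb in E3-KO replicate 1 and to 20.92 Mb in replicate 2 (480 and 500 kb, scores 2.627 and 2.641), against 20.41 to 21.11 Mb and 21.18 Mb in WT replicates 1 and 2 (700 and 770 kb, scores 2.713 and 2.524). The start stayed within 1 bin, and the end lay nearer to it in both E3-KO libraries than in both WT libraries. Of the other 6 libraries 4 kept the WT form and 1 was shifted. On chromosome 13 the TAD at 23.52 to 23.615 Mb in WT was 120 kb long in both E3-KO libraries, against 100 and 90 kb in WT. On chromosome 4 the TAD at 73.355 to 73.515 Mb was 130 and 100 kb long in E3-KO, against 150 and 170 kb in WT. On chromosome 2 the TAD at 154.225 to 154.43 Mb was 150 and 140 kb long in E3-KO, against 200 and 210 kb in WT, and 5 of the other 6 libraries kept it. On chromosome 16 the TAD at 32.495 to 32.63 Mb was 210 and 200 kb long in E3-KO, against 130 and 140 kb in WT, and all 6 other libraries had it shifted too. Its ends in E3-KO were 32.70 and 32.69 Mb. WT replicate 2 also had a TAD of 70 kb at 32.62 to 32.69 Mb (score 1.665), so an end at this place was found in a WT library as well.

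Splits differed between the E3-KO libraries, and the named ones were chosen per library after none was found in both. In E3-KO replicate 1 the WT TAD at 146.53 to 146.91 Mb of chromosome X was replaced by TADs at 146.53 to 146.75 Mb (score 1.98) and 146.76 to 146.91 Mb (score 1.86), and E3-KO replicate 2 had no TAD there. In E3-KO replicate 2 the WT TAD at 144.44 to 145.29 Mb of chromosome 4 was replaced by TADs at 144.46 to 144.98 Mb and 145.05 to 145.24 Mb, while E3-KO replicate 1 kept it. The WT TADs at 83.17 to 83.7 Mb of chromosome X, 59.94 to 61.75 Mb of chromosome 13 and 51.405 to 51.68 Mb of chromosome 1 were likewise split in replicate 2 and kept in replicate 1. The nearest to a split in both was the WT TAD at 16.525 to 18.19 Mb of chromosome 12, in which 4 TADs covered 56.5% in E3-KO replicate 1 and 5 TADs covered 61.3% in replicate 2.

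Smaller TADs inside a WT TAD, described here after their values were seen, were seen in the same place in both E3-KO libraries on chromosome 13. WT cells had a TAD of 520 kb at 68.09 to 68.61 Mb, with scores of 2.864 and 3.016. E3-KO replicates 1 and 2 had instead a TAD of 110 kb at 68.43 to 68.54 Mb, with scores of 3.281 and 7.52, and 7.52 was the highest TAD score of replicate 2. Both also had a TAD at 68.59 to 68.71 Mb, and replicate 2 had a further one at 68.24 to 68.41 Mb. The gained interactions at 68.445 and 68.525 Mb and at 68.125 and 68.415 Mb lie in this region, the second with 10 and 16 reads in E3-KO. The list of WT replicate 2 spans no distance as short as that of the first. All 4 libraries listed interactions here too. At 68.255 and 68.395 Mb E3-KO had 12 and 18 reads, against 10 and 11 in WT. At 68.305 and 68.595 Mb E3-KO had 16 and 21, against 15 and 11 in WT. The small TAD was held by 5 of the other 6 libraries, and none of these kept the WT form. On chromosome 4, WT cells had a TAD of 810 and 680 kb around 113.96 to 114.705 Mb (scores 2.186 and 2.474), and both E3-KO libraries had a TAD at 113.97 to 114.32 Mb (scores 2.486 and 2.592). Of the other 6 libraries 0 fell in the same class and 1 kept the WT form. On chromosome X, a TAD of E3-KO at 146.925 to 147.13 Mb, with scores of 1.731 and 2.028, lay inside a WT TAD of 470 kb at 146.92 to 147.39 Mb. Of the other 6 libraries 0 held this smaller TAD, but 2 also held smaller TADs inside the WT TAD and 1 kept the WT form.

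The WT TAD with the highest score among the 31 without a counterpart in both E3-KO libraries lay at 10.65 to 10.875 Mb of chromosome 5, with scores of 1.937 and 2.320 in WT replicates 1 and 2. Others lay at 22.825 to 23.085 Mb of chromosome 8, 76.77 to 77.15 Mb of chromosome 18 and 35.415 to 35.54 Mb of chromosome X. Of the other 6 libraries, 3 also had no TAD at the first, 4 at the chromosome 8 and chromosome 18 places and 3 at the chromosome X place. A single TAD was kept in all 6 other libraries and in neither E3-KO library. It lay at 38.715 to 38.98 Mb of chromosome 18, with scores of 1.643 and 1.644 in WT, and met no TAD in E3-KO replicate 1 and one at 38.74 to 38.84 Mb in replicate 2 (chosen after its values were seen). WT TADs kept in neither E3-KO library were kept in a median of 2 of the other 6 libraries, against 4 for all 1783 and 5 for those kept in both E3-KO libraries.

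**Figure D4:**
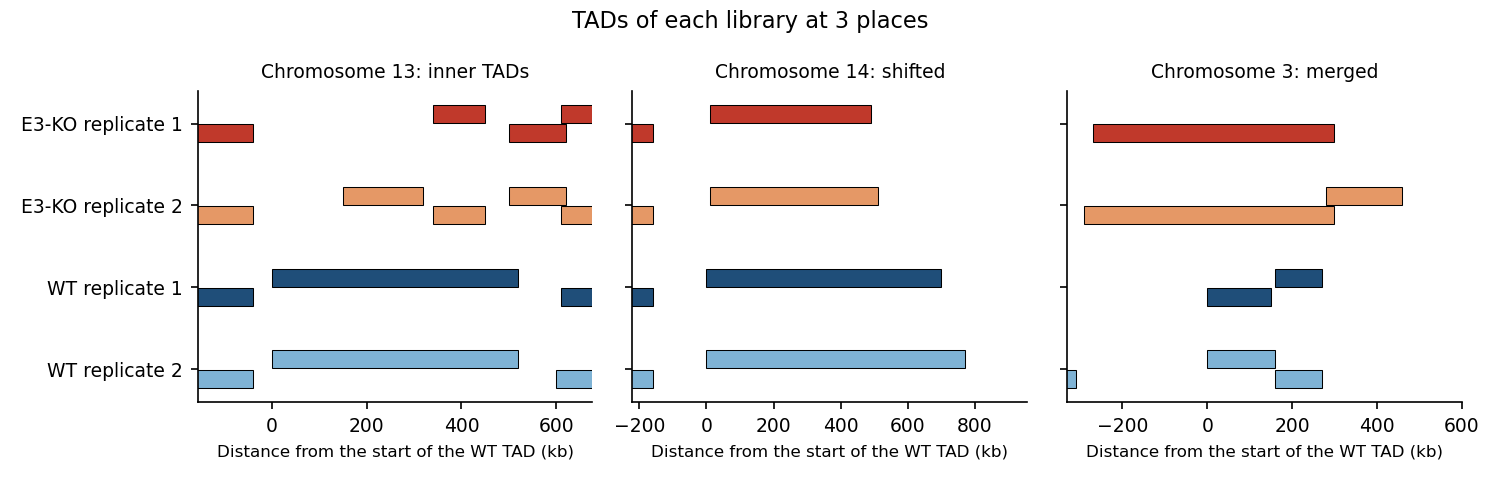
TADs of the 4 libraries at 3 places, E3-KO above WT, with distance in kb from the start of the WT TAD on the horizontal axis; each bar is 1 TAD, drawn at alternating heights and cut off at the panel edges. On chromosome 13 a TAD of 110 kb stands in E3-KO inside the WT TAD of 520 kb, on chromosome 14 the TAD is 480 or 500 kb long in E3-KO, against 700 or 770 kb in WT, and on chromosome 3 a TAD of 570 or 590 kb holds the pair of WT TADs.

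TAD scores could be compared over the 1026 TADs of all 4 libraries. Their median score was 1.84 and 1.815 in E3-KO replicates 1 and 2, against 1.772 and 1.83 in WT replicates 1 and 2. With each library centred on its median, 488 scores were on average higher in E3-KO (47.6%) and 538 lower, and without centring 592 were higher (57.7%) and 434 lower. The differences were small, from -0.30 to 0.44 on the log2 scale with an SD of 0.09 for means of 2 libraries. Between 1 E3-KO and 1 WT library the SD of the difference was 0.11 to 0.14, against 0.14 between the E3-KO replicates and 0.10 between the WT replicates. Both E3-KO libraries lay above both WT libraries in 172 TADs (16.8%) and below both in 214 (20.9%). No score passed limma's test at an adjusted p of 0.05 (0 of 1026, 0.0%; smallest adjusted p = 0.792), and 54 had an unadjusted p under 0.05 (5.26%). Without WT replicate 2, 1 score passed, higher in E3-KO.

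The largest differences upwards among TADs where both E3-KO libraries lay above both WT libraries were on chromosomes 11, 12 and X. The TAD at 107.715 to 107.865 Mb of chromosome 11 had scores of 2.047 and 2.358 in E3-KO, against 1.669 and 1.676 in WT, a centred log2 difference of 0.37 (SE 0.08, limma adjusted p = 0.792). The TAD at 19.97 to 20.34 Mb of chromosome 12 had 2.971 and 4.554 in E3-KO, against 2.807 and 2.922 in WT, a difference of 0.34 that came mostly from replicate 2. The TAD at 139.25 to 139.505 Mb of chromosome X had 1.924 and 2.379 in E3-KO, against 1.673 and 1.746 in WT, a difference of 0.30. In all 3, E3-KO replicate 2 was the highest library. TADs at 75.125 to 75.405 Mb of chromosome 12 and 54.685 to 54.815 Mb of chromosome 11 followed, each with a difference of 0.24.

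The largest differences downwards among TADs where both E3-KO libraries lay below both WT libraries were on chromosomes 2, 13, 11 and 17. The TAD at 65.23 to 65.415 Mb of chromosome 2 had scores of 2.080 and 1.916 in E3-KO, against 2.484 and 2.375 in WT, a difference of -0.30 (SE 0.07, limma adjusted p = 0.792). The TAD at 38.14 to 38.33 Mb of chromosome 13 had 1.642 and 1.584 in E3-KO, against 1.980 and 1.922 in WT, also a difference of -0.30. That both E3-KO libraries lie below WT in these TADs follows from how they were chosen. The TAD at 53.2 to 53.405 Mb of chromosome 13 had 2.216 and 1.810 in E3-KO, against 2.304 and 2.531 in WT (-0.29). The TAD at 116.735 to 116.905 Mb of chromosome 11 had 1.727 and 1.675 in E3-KO, against 1.999 and 2.068 in WT (-0.28). The TAD at 31.14 to 31.27 Mb of chromosome 17 had 1.790 and 1.876 in E3-KO, against 2.214 and 2.159 in WT (-0.28). All 5 were found in 5 or 6 of the other 6 libraries.

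By chromosome, the share of WT TADs kept in both E3-KO libraries was lowest on X (28.8%), highest on chromosome 19 (76.3%) and at a median of 57.1% over 20 chromosomes. On X, E3-KO replicate 1 kept 77.3% and replicate 2 kept 37.9% of 66 TADs, so replicate 2 was the lower library. X was also the chromosome where the fewest TADs of WT replicate 1 were found in WT replicate 2 (31.3%, against a median of 63.2% and 73.8% on chromosome 15). In E3-KO replicate 1 the share kept ran from 73.1% on chromosome 18 to 92.1% on chromosome 19.

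The number of TADs, averaged over replicates, was higher in E3-KO than in WT on the autosomes and X, 20 chromosomes, with ratios from 1.15 on chromosome 8 to 1.36 on chromosome 4. Chromosome 4 had 191 and 296 TADs in E3-KO, against 155 and 202 in WT, and X had 232 and 440 in E3-KO, against 211 and 297 in WT. Y had 1 and 0 TADs in E3-KO, against 0 and 2 in WT, and was left out. On chromosomes 4 and X, E3-KO replicate 2 was the highest and E3-KO replicate 1 lay between the WT libraries. For interactions the ratio ran from 0.697 on chromosome 15, with 17 and 29 in E3-KO, against 50 and 16 in WT, to 2.19 on chromosome 17, with 24 and 44 in E3-KO, against 27 and 4 in WT. On each the WT libraries differed from each other more than the genotype means did.

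Merges lay on chromosomes 3 and 5 in E3-KO replicate 1 and on chromosomes 3 and 6 in replicate 2. Splits lay on chromosomes 15 and X in replicate 1. The 21 splits of replicate 2, of 1783 WT TADs, were most numerous on chromosome 9 with 4 of 90. Chromosomes 1 and 13 followed with 3 of 125 and 3 of 90. Shifts were found on most chromosomes. TADs shifted in both E3-KO libraries, 1.35% of all, were most numerous on chromosome 16 with 4 of 70. Chromosomes 4 and 11 followed with 3 of 93 and 3 of 121. WT TADs that held smaller TADs in both, 1.91% of all, were most numerous on chromosomes 3 (4 of 117) and 17 (4 of 73). Those without a TAD in both, 1.74% of all, were most numerous on chromosome 18 (4 of 67). With so few per chromosome these ranks carry little weight. The median difference in TAD score ranged from -0.03 on X to 0.02 on chromosome 18 on the log2 scale, with 8 chromosomes above 0 and 12 below. On X, over 19 TADs, it was -0.03 in E3-KO replicate 1 and 0.06 in replicate 2, so the E3-KO libraries lay on opposite sides of WT there.

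**Figure D5:**
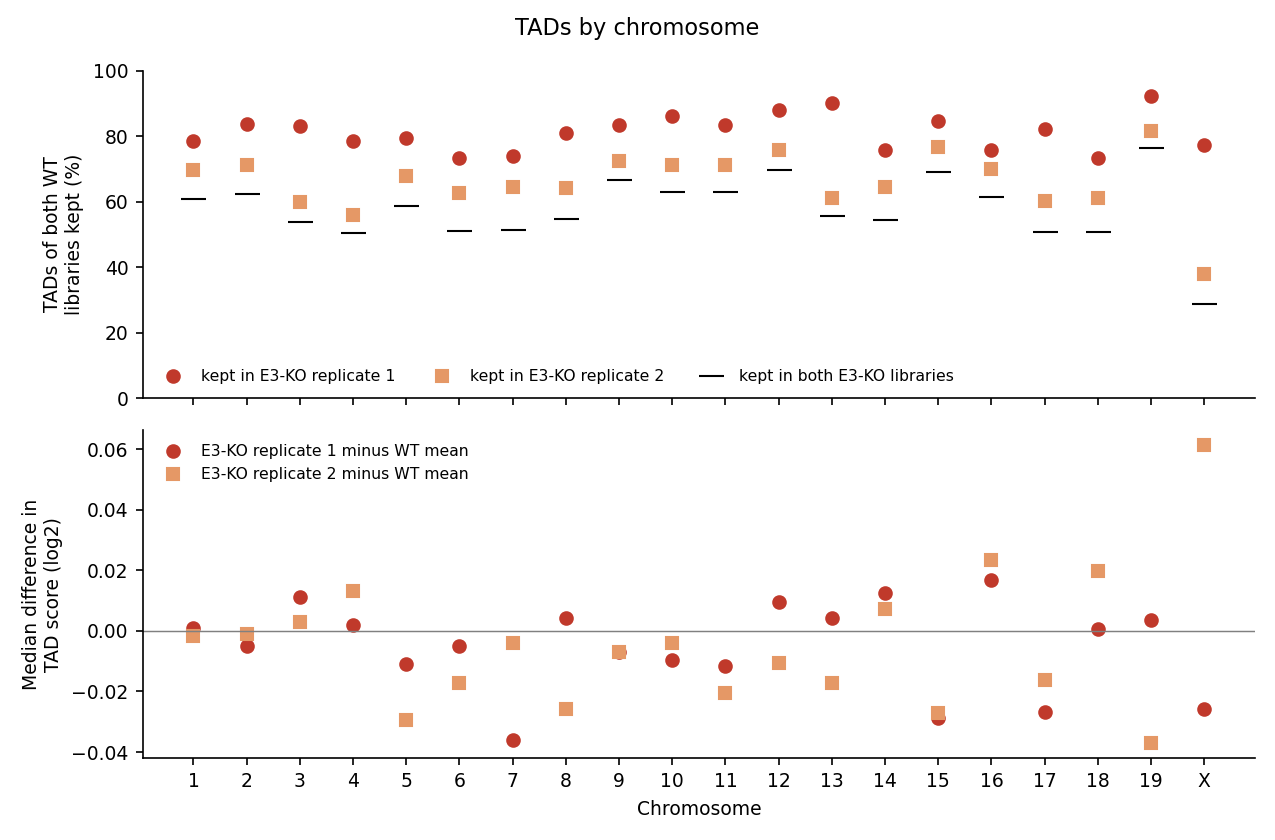
By chromosome, the percent of TADs of both WT libraries kept in E3-KO replicate 1, in E3-KO replicate 2 and in both (top), and the median log2 difference in TAD score of each E3-KO library from the WT mean over TADs of all 4 libraries (bottom). The share kept in both runs from 28.8% on X to 76.3% on chromosome 19, and on X the E3-KO libraries have median score differences of -0.03 and 0.06.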

How the data were processed

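Exo-Hi-C was measured in 2 E3-KO and 2 WT libraries; the other 6 served for look-up. Per the submitters' processing notes, HiC-Pro 2.10.0, HOMER and mm9 were used. The deposited interaction lists give, per library, a count of reads (unscaled) for pairs of 10 kb bins, a p-value and adjusted p-value, and a bias factor per bin, a ratio to an average bin. The deposited TAD lists give ends and a score. The tools behind each list are not given in the sources used here. WT replicate 2 lists every pair in both orientations (932 lines, 466 pairs). Its reads include odd counts, such as 25 and 11, so the reads of a pair were not themselves doubled. If the contacts behind its expected values were counted in both orientations, its recovered depth and expected contacts are too high. Its enrichment is then too low.

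Expected contacts were recovered as the Poisson mean under which the listed reads have their listed p-value. Divided by the bias factors they depended on distance alone, within 0.1% at 100% of distances with at least 2 pairs.

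Members, lists and rules were chosen with earlier results of these data known. Single values were compared by exact permutation tests (smallest p 0.3333). TAD scores (log2, centred) and enrichment were tested with limma 3.58.1, Benjamini-Hochberg adjusted, and edgeR 4.0.16 was an alternative. On simulated log2 changes of 2, the fit of TAD scores found 200 of 200 and called 5 unchanged TADs. The fit of enrichment found 6 of 9 and called 2 unchanged interactions. The largest enrichment difference seen was 1.68, and smaller changes were not simulated, so an absence of calls there has little weight. The labels name no separate cultures, so the spread behind these p-values may be technical. Regions were named by rule: by distance class the 2 gained and 2 lost pairs with the smallest mean p, and the 5 TADs or interactions with the highest WT score or largest difference. Differences were ranked only among those where both E3-KO libraries lay on the same side of both WT libraries. Alternatives were stricter lists, autosomes, equal list lengths, other overlaps, blocks, scaling and leaving out each library. No mm9 annotation was used here, so no gene is named. Replicate numbers were not used as pairs, since they share only a number.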

Additional observations from a re-analysis of the deposited data

How the results depend on the processing

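With each library left out in turn, the log2 difference in number of interactions ran from -0.21 to 1.24, the difference in share under 200 kb from -4.66 to 8.40 points, that from 0.2 to 2 Mb from 0.19 to 5.94, from 2 to 20 Mb from -4.84 to -2.20 and at 20 Mb and more from -9.50 to 6.68. The log2 difference in number of TADs ran from 0.05 to 0.60 and in median length from -0.82 to 0.0055. WT TADs kept numbered 1176 to 1444, split 0 to 21, merged 4 to 23 and shifted 78 to 134. They were out of 1783 with 1 E3-KO library left out, 3548 without WT replicate 1 and 2878 without WT replicate 2. Fewer libraries have to show a change here, which by itself raises these counts. Limma calls ran from 0 to 1 for TAD scores and from 0 to 25 for enrichment. Between the w326 libraries the share under 200 kb differed by -8.00 points, from 0.2 to 2 Mb by -0.48 and at 20 Mb and more by 11.6; between the others the log2 number of TADs differed by -0.10 and their log2 length by 0.13. With equal numbers of best pairs the share from 2 to 20 Mb differed by 0.64. Merged TADs numbered 4 of 1898 at an overlap of 70% and 0 of 1646 with equal numbers of best TADs. Shifted ones numbered 11 of 1898 at 70% and 59 of 1498 at 90%, since that class ends where kept begins. Split TADs numbered 5 with no minimum of coverage (added after the data were seen). For the others the cause was not tested. The other alternatives kept the direction or the count within 1.5 times.

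With the replicate number as a block, limma called 0 TAD scores (smallest adjusted p = 0.847) and 0 interactions (0.502). Same-numbered libraries deviated together with r = -0.01 for TAD scores and -0.33 for enrichment. The crossed pairing, which is the title as a block, gave 0 TAD scores and 21 interactions.

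The median interaction rested on 3 or 4 reads, so changes of a few reads decide whether long pairs are listed, and 2 libraries against 2 cannot reach an exact p under 0.3333.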
